A study of Mus musculus with 20 samples.

Results

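Pparg, the gene of the nuclear receptor PPARγ, and 9 genes of fatty acid uptake and lipid droplets (Cd36, Fabp4, Mogat1, Plin2, Plin4, Plin5, Cidea, Cidec and Pnpla2) were examined in livers of mice treated with an antisense oligonucleotide against the small nucleolar RNA SNORA73. The 10 genes are a list of symbols chosen with earlier results of these data known, and each was found once among the 53028 genes of the table. Livers came from 10 chow-fed male C57BL/6J mice that were given 3 intraperitoneal injections of a locked nucleic acid (LNA) at 3 mg/kg, 1 every other day, and were killed 2 days after the last. Per the study's methods for liver polysomes, mice of both groups also received cycloheximide, which holds ribosomes on mRNA, by tail vein shortly before death. The control group received an LNA against GFP, a jellyfish protein that mice lack (mice 1, 2, 3, 8 and 9), and the knock-down group the SNORA73 LNA (mice 4, 6, 10, 11 and 12). The labels write the target of the second group as Snora37, while the series' design text and the study's methods name SNORA73. The design gives an age of 8 weeks at injection, and the methods for liver polysomes give 10 weeks. No transgene or targeted allele is named for either group, and the LNA was given to the whole animal, not to 1 cell type. Each mouse gave 1 library of total RNA from the lysate and 1 of RNA from polysome fractions, which hold mRNAs carrying several ribosomes.

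2 LNAs against SNORA73 are listed by the study, and the labels do not say which of them the sequenced mice received. The study's text states that further work in mice, after a first comparison of both, was done with the one numbered 2, without naming the sequenced livers. They are shown because they define the treatment, 5′ to 3′, with locked bases in capitals and unmodified DNA bases in lower case.
SNORA73 LNA 1: AAGTCgtaggaatatGCAGG
SNORA73 LNA 2: GACTCtgagaagtcgTAGGA
Each has 20 bases, of which 10 are locked, 5 at either end. Libraries were made from polyadenylated RNA, which does not capture the snoRNA itself, so the depth of the knock-down in these mice was not measured here.

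PPARγ binds DNA with a retinoid X receptor partner and turns on genes that take up and store fatty acids. It is abundant in fat tissue and scarce in healthy liver, and its liver level is known to go up in fatty liver. Among its known targets are CD36, which brings fatty acids into the cell, FABP4, which carries them in the cytosol, and MOGAT1, which makes diglyceride from monoglyceride. Stored triglyceride sits in droplets coated by perilipins (PLIN2, PLIN4 and PLIN5), and CIDEA and CIDEC enlarge droplets by passing lipid from small to large ones. PNPLA2 (adipose triglyceride lipase) starts the release of the stored fat.

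In GRCm38.p6, RefSeq places Pparg (ENSMUSG00000000440) at chr6:115360879-115490404 and Cidec (ENSMUSG00000030278) on the same chromosome at chr6:113424634-113435760. Cd36 (ENSMUSG00000002944) lies at chr5:17781690-17888959, Fabp4 (ENSMUSG00000062515) at chr3:10204342-10208616 and Mogat1 (ENSMUSG00000012187) at chr1:78511060-78606964. Plin2 (ENSMUSG00000028494) lies at chr4:86626910-86670217 and Pnpla2 (ENSMUSG00000025509) at chr7:141455188-141460743. Plin4 (ENSMUSG00000002831, chr17:56100587-56109948) and Plin5 (ENSMUSG00000011305, chr17:56111597-56117606) are side by side without overlap. The identifier of Cidea is ENSMUSG00000024526. All values are sums over the transcripts of a gene, so exons, introns and untranslated regions were not told apart.

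PPARγ and its partner bind a direct repeat of the half-site AGGTCA with 1 base between the copies, AGGTCANAGGTCA, and the promoter windows of RefSeq (250 bases before to 50 after a start site) were searched for it. The motif, both strands and a limit of 2 mismatches over the 12 defined letters were chosen after expression values had been seen. Of 12 windows, which belong to 8 of the genes (no entry for Fabp4 and Cidea), 3 held a match: 1 each of Cd36, Plin2 and Mogat1. The share among all 32851 windows was 3.86%, and 13 of them held the repeat without a mismatch. The half-site itself, which is part of the repeat, was in 6 of the 12 windows and in 16.3% of all windows. The 250 bases before the start site are shown for the 3 genes with a match, on the strand of the gene with the matched bases in capitals.
Cd36, chr5:17835897-17836146, minus strand: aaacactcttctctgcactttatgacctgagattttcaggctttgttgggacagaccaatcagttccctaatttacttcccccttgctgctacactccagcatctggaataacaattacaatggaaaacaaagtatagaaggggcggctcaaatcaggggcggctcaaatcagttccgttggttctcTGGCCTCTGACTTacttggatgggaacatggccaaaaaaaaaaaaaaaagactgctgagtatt
Plin2, chr4:86670060-86670309, minus strand: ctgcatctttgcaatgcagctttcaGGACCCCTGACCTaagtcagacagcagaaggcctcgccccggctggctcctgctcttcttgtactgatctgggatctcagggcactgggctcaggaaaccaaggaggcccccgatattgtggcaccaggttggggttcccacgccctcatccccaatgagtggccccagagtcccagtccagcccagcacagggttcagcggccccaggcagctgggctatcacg
Mogat1, chr1:78510810-78511059, plus strand: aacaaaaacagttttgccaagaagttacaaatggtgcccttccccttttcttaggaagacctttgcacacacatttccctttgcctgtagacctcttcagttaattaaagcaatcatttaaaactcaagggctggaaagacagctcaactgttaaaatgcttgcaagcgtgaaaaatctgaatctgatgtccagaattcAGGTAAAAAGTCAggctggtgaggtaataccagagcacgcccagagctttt
The matches begin 63 bases before the start site in Cd36, 225 in Plin2 and 51 in Mogat1, each with 2 mismatches. Cd36 and Plin2 are on the minus strand, and their gene spans reach up to 17888959 and 86670217. The start sites of both windows thus lie inside the gene spans, as do all bases shown for Cd36. The Cd36 and Plin2 matches read as the repeat on the opposite strand, and the Mogat1 match on the strand of the gene. Of the 3 windows of Pparg, 2 held a half-site and none the repeat. A match is a likeness of letters and was not tested for binding.

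Levels are given as CPM, the counts of a gene scaled to a common library size, after scaling by the trimmed mean of M values (TMM), total and polysome RNA apart. Libraries held 20005389 to 42023390 counts in total RNA and 14852951 to 33824659 in polysome RNA. All 10 mice were used in each main test. The study set aside 1 mouse per group, unnamed, because it did not group with the others in a principal component analysis. Of the 25 possible pairs, GFP mouse 9 and SNORA73 mouse 10 were taken as that pair from the fold changes it listed. The main values are therefore also given for the 8 mice without them, in the text or in the plot of fold changes. In total RNA the library of mouse 10 had the lowest mean correlation with its own group (0.964), and that of mouse 9 was the lowest of the GFP group (0.973). In polysome RNA mouse 11 (0.953, mouse 10 at 0.955) and GFP mouse 2 (0.964, mouse 9 at 0.965) were the lowest, so both RNAs did not single out the same mice. A gene was called when its Benjamini-Hochberg false discovery rate (FDR) over all genes tested, by the quasi-likelihood test of edgeR, was under 0.05. Log2 fold changes are SNORA73 over GFP LNA, so a negative value means a lower level after SNORA73 LNA.

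Pparg and the genes of fatty acid uptake and binding, Cd36 and Fabp4, had lower mean levels with SNORA73 LNA in both RNAs, by log2 fold changes of -0.96 to -0.38. The droplet coat gene Plin5 and the lipase gene Pnpla2 had estimates of -0.08 to 0.15. Estimates were also below 0 for Plin2 (-0.25 in total and -0.36 in polysome RNA), Mogat1 in total RNA (-0.54) and Cidec in polysome RNA (-2.04). That of Plin4 in total RNA was above 0 (0.36). None of the 10 genes was called over the 10 mice, and Pparg was called in total RNA over 8 mice. In total RNA 0 of the 8 genes that passed the filter on low counts were called, against 0.0303% of the 13195 genes tested. DESeq2 called 1 of them (Cd36, adjusted p = 0.00253) among 68 genes in all, and limma-voom called 0. At an unadjusted p under 0.05, 3 of the 8 were lower (Pparg, Cd36 and Fabp4), against 3.69% of all genes, and 0 were higher, against 4.96%. In polysome RNA edgeR called 0 of 7 genes, against 0.0153% of 13060. DESeq2 called 3 (Pparg, Cd36 and Fabp4) among 282 in all, and limma-voom called 0. At an unadjusted p under 0.05, 4 of the 7 were lower (Pparg, Cd36, Fabp4 and Cidec), against 5.32% of all genes, and 0 were higher, against 8.12%. Cidec passed the filter only through GFP libraries, where it was high, and without it the count was 3 of 6. Polysome and total RNA came from the same livers, so the second set of values is no independent sample of mice.

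**Figure D1:**
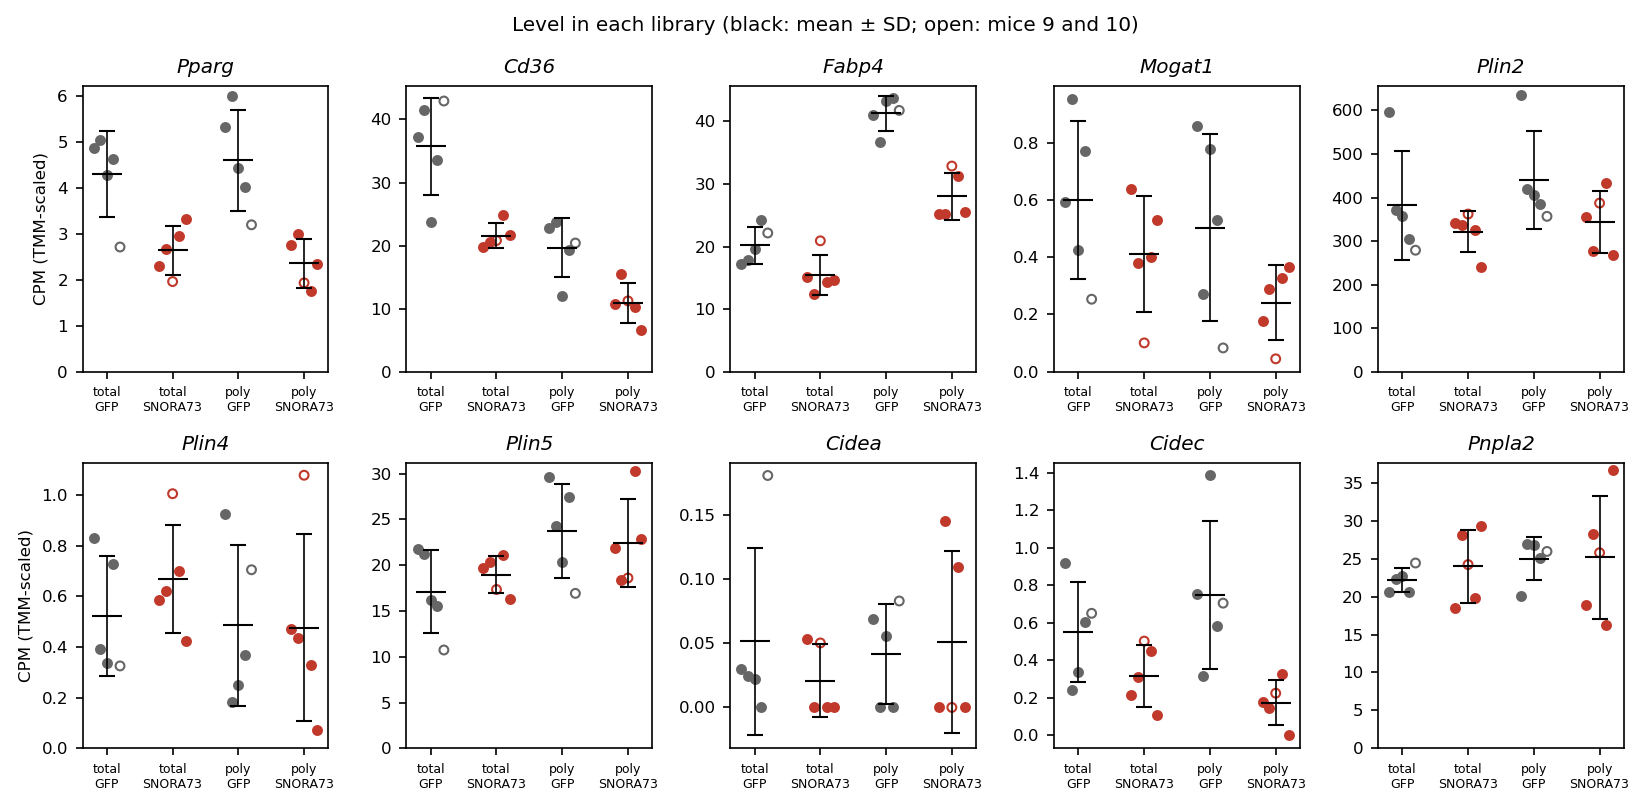
Level of each gene in each library, in CPM on a linear axis with its own scale per gene, for total and polysome RNA (poly) and both LNAs. Points are mice, black lines mean ± SD of 5 mice, and open points mice 9 and 10. Pparg and Fabp4 do not overlap between the LNAs in polysome RNA, and Pparg of GFP mouse 9 sits at 2.71 CPM in total RNA, below the 4.29 to 5.03 CPM of the other GFP mice.

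Pparg, the transcription factor of the group, was low in every liver. In total RNA its level was 4.85, 5.03, 4.29, 4.61 and 2.71 CPM in GFP mice 1, 2, 3, 8 and 9, and 2.29, 2.66, 1.96, 2.95 and 3.33 CPM in SNORA73 mice 4, 6, 10, 11 and 12. These values rest on 39 to 206 counts per library. The GFP mice other than mouse 9 were above every SNORA73 mouse, and mouse 9 lay among the SNORA73 mice. The group means were 4.30 ± 0.93 and 2.64 ± 0.538 CPM (SD, n = 5), with a log2 fold change of -0.70 (SE 0.193, FDR = 0.357 by edgeR). Without mice 9 and 10 the log2 fold change was -0.73 (SE 0.144) with an FDR of 0.0467, so Pparg fell by 39.9% in that fit. No other of the 8 genes tested was called there, and 0.745% of all 13017 genes were. Leaving out mice because they stand apart from their group can itself lower the spread, and the SE went from 0.193 to 0.144. Leaving out each mouse in turn from the 10 gave log2 fold changes of -0.83 to -0.61 and FDRs of 0.0568 to 0.64. In a bulk liver library, fewer cells of a type and less RNA per cell cannot be told apart.

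Polysome RNA held Pparg at 5.31, 6.00, 4.43, 4.02 and 3.19 CPM in the GFP mice and 2.76, 3.00, 1.93, 1.75 and 2.34 CPM in the SNORA73 mice, in the same order. The groups did not overlap, although the lowest GFP mouse (mouse 9) and the highest SNORA73 mouse (mouse 6) were close. Genes lower without overlap made up 1.09% of the polysome genes tested and 0.705% of the total RNA genes, and here they included Pparg and Fabp4 in polysome RNA and none of the 8 genes tested in total RNA. The log2 fold change of Pparg was -0.96 (SE 0.223, FDR = 0.118 by edgeR). It was -0.99 with an FDR of 0.108 over 8 mice. All 20 libraries were also fitted together, which pools the spread of both RNAs and treats the 2 libraries of a mouse as separate replicates. That fit called 317 genes in polysome RNA and gave Pparg an FDR of 0.0257 there. In total RNA that fit called 4 genes and gave larger FDRs than the separate fit, 0.648 for Pparg, 0.444 for Cd36 and 0.693 for Fabp4.

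Cd36, the fatty acid translocase, gave the smallest p-value of the 10 genes in total RNA, where it ranked 17th of 13195. Its levels were 37.2, 41.5, 23.7, 33.6 and 42.9 CPM in the GFP mice and 19.8, 20.5, 20.8, 24.8 and 21.7 CPM in the SNORA73 mice. The SNORA73 mice were close together, and GFP mouse 3 fell among them, so the groups overlapped at that mouse. The means were 35.8 ± 7.69 and 21.5 ± 1.97 CPM, and the log2 fold change was -0.73 (SE 0.146, FDR = 0.215). Without mouse 3 it was -0.85 and passed the test (FDR = 0.0348), as it also did with all genes of at least 1 count (FDR = 0.0477). Over 8 mice it was -0.65 with an FDR of 0.112.

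In polysome RNA Cd36 was at 22.9, 23.8, 12.1, 19.3 and 20.4 CPM in the GFP mice and at 10.8, 15.5, 11.2, 10.3 and 6.66 CPM in the SNORA73 mice. GFP mouse 3 was again the lowest control and lay below SNORA73 mouse 6. The log2 fold change was -0.85 (SE 0.222, FDR = 0.157), and in the fit of all 20 libraries the FDR was 0.0325.

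Fabp4, the cytosolic fatty acid carrier of fat cells, macrophages and endothelium, had a smaller difference than Cd36 in both RNAs. In total RNA it was at 17.2, 17.9, 19.6, 24.2 and 22.2 CPM in the GFP mice and at 15.1, 12.4, 20.9, 14.3 and 14.7 CPM in the SNORA73 mice. SNORA73 mouse 10 alone reached the control range. The log2 fold change was -0.38 (SE 0.143, FDR = 0.478), and without mice 9 and 10 it was -0.48 (FDR = 0.13) with groups that did not overlap. Over 8 mice 2 of the 8 genes in total RNA (Pparg and Fabp4) were lower without overlap, against 3.16% of all genes tested.

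Among the polysome libraries Fabp4 was at 41.0, 36.7, 43.2, 43.7 and 41.7 CPM with GFP LNA and at 25.2, 25.2, 32.8, 31.2 and 25.5 CPM with SNORA73 LNA. Every SNORA73 mouse was below every GFP mouse. The means were 41.2 ± 2.79 and 28.0 ± 3.72 CPM, and the log2 fold change was -0.56 (SE 0.119, FDR = 0.099). The fit of all 20 libraries gave an FDR of 0.0276. Over 8 mice, 0 of 6 genes in polysome RNA were called by edgeR, against 0.242% of 12825, and limma-voom called 0. In that fit Pparg, Cd36, Fabp4 and Plin2 were lower at an unadjusted p under 0.05, against 4.95% of genes, and Pparg and Fabp4 were lower without overlap, against 3.63%. In total RNA over 8 mice, 3 of 8 (Pparg, Cd36 and Fabp4) were lower at an unadjusted p under 0.05, against 5.05%.

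**Figure D2:**
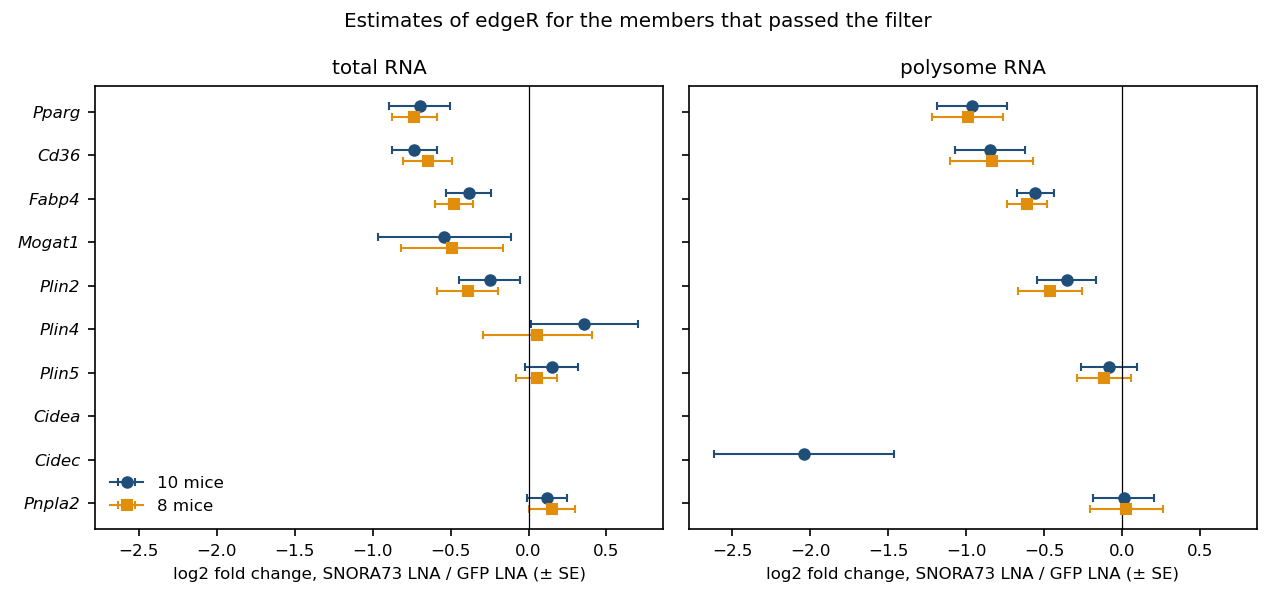
Log2 fold change of SNORA73 over GFP LNA with its standard error from edgeR, in total RNA (left) and polysome RNA (right), for 10 mice (circles) and 8 mice (squares). Genes without a mark did not pass the filter. The estimates of Pparg, Cd36 and Fabp4 lie between -0.99 and -0.38 in every fit drawn, and those of Plin5 and Pnpla2 between -0.12 and 0.15.

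Mogat1, the monoacylglycerol acyltransferase, was close to the detection limit, with 2 to 39 counts per library in total RNA. It was at 0.592, 0.952, 0.426, 0.769 and 0.253 CPM in the GFP mice and at 0.638, 0.38, 0.101, 0.401 and 0.531 CPM in the SNORA73 mice. The groups overlapped, and mice 9 and 10 were the lowest of their groups. The log2 fold change was -0.54 (SE 0.425, FDR = 0.783), and it was -0.30 without mouse 2, -0.31 without mouse 10 and between -0.73 and -0.46 when any other mouse was left out. In polysome RNA Mogat1 did not pass the filter, and its mean log2(CPM + 0.5) differed by -0.39 between the groups (two-sided exact permutation test, p = 0.167, with 0.00794 the smallest p this design allows). The size of this difference depends on the constant: with 0.1 in place of 0.5 it was -0.71 (exact permutation p = 0.238). The 2 alternative fits that tested Mogat1 there gave log2 fold changes of -1.11, neither called.

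Plin2, the main perilipin of hepatocytes, was well covered in every library. In total RNA it was at 596, 372, 358, 305 and 279 CPM in the GFP mice and at 342, 337, 362, 325 and 240 CPM in the SNORA73 mice. GFP mouse 1 stood far above all others, and the remaining mice overlapped. The log2 fold change was -0.25 (SE 0.193, FDR = 0.78) and without mouse 1 it was -0.04. In polysome RNA it was at 636, 419, 405, 385 and 357 CPM in the GFP mice and at 356, 276, 387, 433 and 268 CPM in the SNORA73 mice, again with mouse 1 the highest. The log2 fold change there was -0.36 (SE 0.188, FDR = 0.435), and without mouse 1 it was -0.19.

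The other perilipins had estimates near or above 0. Plin5, which coats droplets in tissues that burn fat, ranged from 10.7 to 21.7 CPM in GFP and from 16.3 to 21.1 CPM in SNORA73 total RNA (log2 fold change 0.15, SE 0.17, FDR = 0.86). Without GFP mouse 9, its lowest, the estimate was 0.01, and without mouse 1, its highest, 0.24. In polysome RNA it ranged from 16.9 to 29.6 and from 18.4 to 30.2 CPM (log2 fold change -0.08, SE 0.179, FDR = 0.877). Plin4, a perilipin of small droplets in fat tissue, had 9 to 28 counts per library in total RNA, and its log2 fold change of 0.36 (SE 0.343, FDR = 0.827) was 0.06 over 8 mice and 0.17 to 0.59 when each mouse was left out. SNORA73 mouse 10 had the highest Plin4 level of the 10, at 1.01 CPM. Under the filter in polysome RNA, the mean log2(CPM + 0.5) of Plin4 differed by -0.03 (exact permutation p = 0.929), and by -0.10 with 0.1 in place of 0.5 (exact permutation p = 0.865).

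Of the genes for droplet enlargement, Cidea gave 0 to 5 counts per library in total RNA and 0 to 3 in polysome RNA. Only 1 of the 20 libraries, total RNA of GFP mouse 9 with 5 counts, exceeded the floor of 3 counts, so no fold change is given. Cidec in polysome RNA was at 0.754, 0.318, 1.39, 0.581 and 0.705 CPM in the GFP mice and at 0.176, 0.145, 0.225, 0.327 and 0 CPM in the SNORA73 mice. Only GFP mouse 2 overlapped with the SNORA73 mice, whose counts were 3, 3, 5, 6 and 0. Its fitted log2 fold change was -2.04 (SE 0.577, FDR = 0.184), but Cidec passed the filter through GFP libraries alone, which favours a difference in this direction. Over 8 mice it no longer passed. In total RNA Cidec had 3 to 31 counts per library. It did not pass the filter, which used CPM before TMM scaling, although 4 libraries were above 0.5 CPM after scaling. Its mean log2(CPM + 0.5) differed by -0.35 (exact permutation p = 0.127), and by -0.64 with 0.1 in place of 0.5 (exact permutation p = 0.143). The 2 alternative fits that tested it gave log2 fold changes of -0.82 and -0.80, neither called.

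Pnpla2, the lipase that starts lipolysis, did not differ by more than the spread between mice. It ranged from 20.6 to 24.4 CPM in GFP and from 18.5 to 29.3 CPM in SNORA73 total RNA, and from 20.1 to 27.0 and 16.3 to 36.7 CPM in polysome RNA. The SNORA73 mice were spread more widely than the GFP mice in both. The log2 fold changes were 0.12 (SE 0.13, FDR = 0.856) and 0.01 (SE 0.195, FDR = 0.988). The sign of the first turned to -0.03 when libraries were scaled by their totals alone, a scaling that moved the median of all genes to -0.14 in total RNA and to -0.17 in polysome RNA.

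Whether the difference between the LNA groups was the same in polysome as in total RNA, relative to the other genes, was asked with an interaction term (RNA by LNA) in a model of the 20 libraries. By edgeR, 0 of 9 genes were called, against 0.00725% of 13795, and 0 passed an unadjusted p of 0.05, against 2.91% of all genes. DESeq2 and limma-voom each called 0. The estimates ran from -1.24 (SE 0.753) for Cidec, -0.57 for Mogat1, -0.34 for Plin4 and -0.26 (SE 0.303) for Pparg to -0.10 for Plin2 and Pnpla2. In this fit too Cidec passed the filter through GFP libraries alone, so nothing is drawn from its estimate. When each mouse was left out, the interaction ran from -1.51 to -0.74 for Cidec and from -0.37 to -0.12 for Pparg. With the mouse as a replicate block, which pairs the 2 libraries of a liver, the interaction was -0.25 for Pparg (FDR = 0.809), -0.13 for Cd36 (FDR = 0.886) and -1.33 for Cidec (FDR = 0.631). Without the block its SE was 0.183 for Fabp4 and larger for the other 8 genes. Over 8 mice the interaction was -0.25 for Pparg, -0.18 for Cd36 and -0.12 for Fabp4, none of them called.

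Polysome and total levels themselves differed for 3 of the 9 genes, Cd36, Fabp4 and Plin5, against 55.5% of all 13795 genes tested. Relative to the other mRNAs, Cd36 was lower in polysome than in total RNA in 10 of 10 mice (log2 ratio -0.95, SE 0.141, FDR = 7.9e-06). Fabp4 was higher in polysome RNA in 10 of 10 mice (0.91, SE 0.0921, FDR = 5.78e-08). The 2 fatty acid handling genes thus lay on opposite sides, Cd36 between -1.75 and -0.42 and Fabp4 between 0.63 and 1.23 over single mice. Plin5 was higher in 9 of 10 mice (0.32, FDR = 0.042), and leaving out mouse 3, 4, 8, 10, 11 or 12 ended its call (FDR = 0.0638 to 0.115). So did DESeq2's size factors (FDR = 0.0536), all genes of at least 1 count (0.071) and a CPM above 1 in every library (0.092). With the replicate block it was 0.32 with an FDR of 0.00196, in a fit that called 9042 of the 13795 genes. Over 8 mice the ratios were -0.96 for Cd36, 0.93 for Fabp4 and 0.30 for Plin5 (FDR = 0.0376), each called, as were 7256 of all 13579 genes. Pparg (-0.08, SE 0.151), Plin2 (0.12, SE 0.141) and Pnpla2 (0.08, SE 0.122) were not called. These ratios are relative to the other genes of a library and do not give the share of a gene's mRNA on ribosomes.

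**Figure D3:**
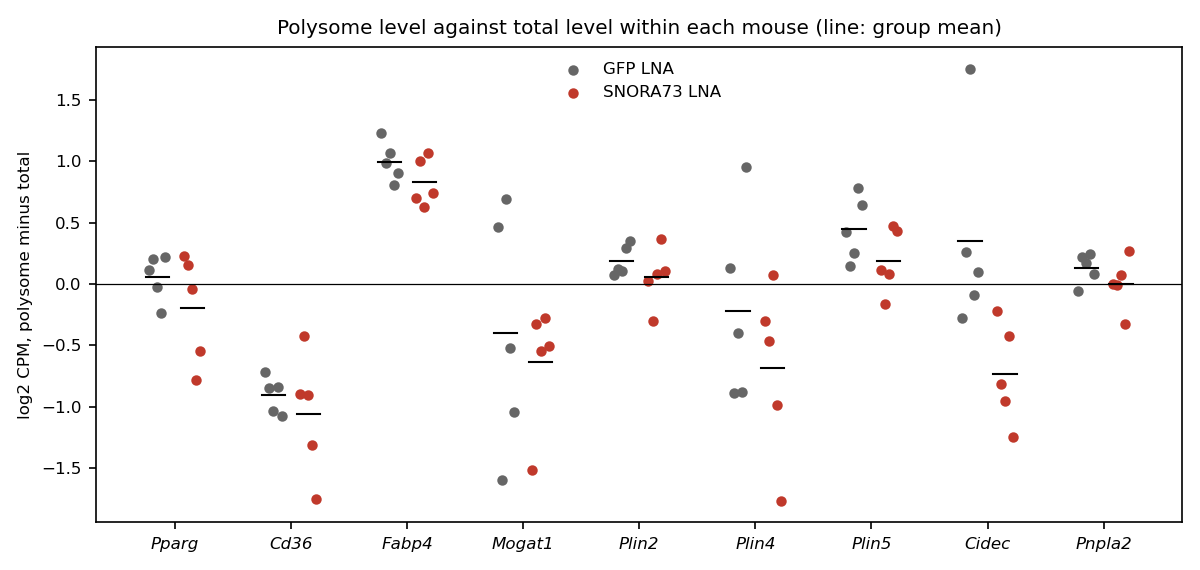
Log2 CPM in polysome RNA minus log2 CPM in total RNA of the same mouse, all 20 libraries scaled together, for the 9 genes that passed the filter. Points are mice and lines group means (n = 5 for each LNA). Cd36 is below 0 and Fabp4 above 0 in all 10 mice, and the LNA groups overlap for every gene drawn.

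Mice with more of a transcript in total RNA also had more of it in polysome RNA for most of the genes. Pearson's r of log2 CPM over the 10 mice was 0.814 for Pparg, 0.818 for Cd36, 0.818 for Fabp4, 0.836 for Plin2 and 0.856 for Pnpla2, each with an adjusted permutation p of 0.00726 over the 6 genes tested. Spearman's rho was 0.758, 0.685, 0.806, 0.661 and 0.867 in the same order, with adjusted p from 0.0124 (Pnpla2) to 0.0518 (Cd36 and Plin2). For Plin5 r was 0.549 (adjusted permutation p = 0.0908) and rho 0.515 (adjusted p = 0.132), while with library totals in place of TMM r was 0.651 (adjusted permutation p = 0.0401). Over 8 mice r was 0.79 for Pparg, 0.805 for Cd36, 0.858 for Fabp4, 0.851 for Plin2 and 0.857 for Pnpla2, and 0.219 for Plin5 (adjusted permutation p = 0.585). Without the 2 mice farthest from the median, r was between 0.562 and 0.779 for the other 5 genes and 0.195 for Plin2, whose relation rested on mice 1 and 12. After each LNA group was centred on its mean, r was 0.498 for Pparg, 0.513 for Cd36, 0.671 for Fabp4, 0.827 for Plin2, 0.634 for Plin5 and 0.897 for Pnpla2.

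Pparg and its targets were then compared mouse by mouse in total RNA. Of 7 relations over 10 mice, that with Mogat1 had the highest r (Pearson's r = 0.731, permutation p = 0.0117, adjusted p = 0.0818; Spearman's rho = 0.697, p = 0.0306, adjusted p = 0.136). It was 0.749 after centring each LNA group over all 10 mice, and without mice 2 and 10, the farthest from the median Pparg level, it was 0.434. For Cd36 r was 0.61 (p = 0.066, adjusted p = 0.231) and rho 0.673 (p = 0.0389, adjusted p = 0.136), and after centring r was -0.07. Fabp4 had an r of 0.232 and -0.57 after centring. The centred values include mice 9 and 10, each the lowest of its group in Pparg and in Mogat1 (7 and 2 counts of Mogat1). Centred r was not calculated without these mice, so no order of the genes within the LNA groups is drawn from it. The order depended on which mice were used. Over the 8 mice without 9 and 10, r was 0.872 for Cd36 (permutation p = 0.00778, adjusted p = 0.0545), 0.741 for Fabp4 (p = 0.0323, adjusted p = 0.113) and 0.517 for Mogat1 (p = 0.187, adjusted p = 0.436). Without mice 2 and 10, Fabp4 (0.513) and Plin2 (0.449) had a higher r than Mogat1 (0.434), and Cd36 was at 0.431. For Plin2, Plin4, Plin5 and Pnpla2, r ran from -0.26 to 0.337, with adjusted permutation p of 0.678 for each. After centring, r was 0.66 for Plin5, 0.146 for Plin2, 0.04 for Plin4 and 0.0039 for Pnpla2. With TMM scaling none of the 7 relations passed the adjustment, over 10 or over 8 mice, and with library totals that with Mogat1 did (r = 0.766, permutation p = 0.00653, adjusted p = 0.0457).

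**Figure D4:**
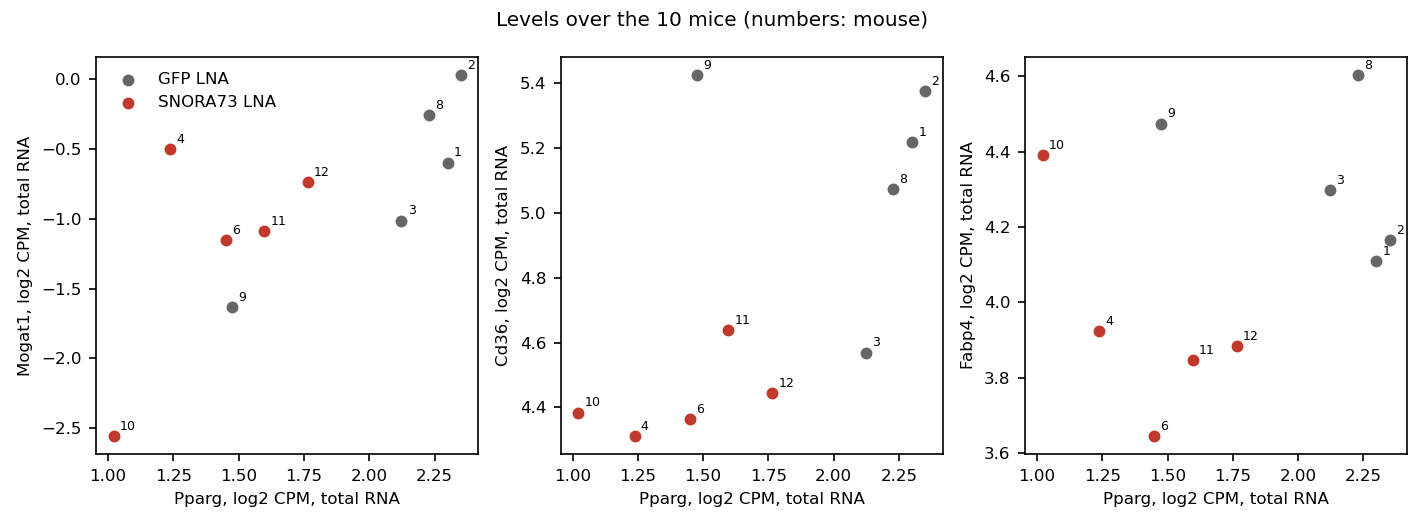
Log2 CPM of Mogat1, Cd36 and Fabp4 against that of Pparg in total RNA, 1 point per mouse, numbered, grey for GFP and red for SNORA73 LNA. Within the LNA groups, over all 10 mice, r with Pparg is 0.749 for Mogat1 and -0.07 for Cd36. Mice 9 and 10, each the lowest of its group in Pparg and Mogat1, are included, and r within groups was not calculated without them. GFP mouse 9, low in Pparg, has the highest Cd36 level of all 10 mice.

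The genes most like Pparg over the 10 total RNA libraries, by Pearson's r of log2 CPM and as a description only, were Acad8 (0.966), Gpn3 (0.957), Acat1 (0.955), Gm10319 (0.941) and Sult1b1 (0.939). Acad8 and Acat1 encode mitochondrial enzymes of branched-chain amino acid and acetoacetyl-CoA metabolism, and Sult1b1 a cytosolic sulfotransferase. In polysome RNA their r with Pparg was 0.661, 0.844, 0.846, 0.886 and 0.913. Mogat1 came 312th and Cd36 847th in this order, which was made over all 10 mice and left out Cidea and Cidec, since they did not pass the filter. All these values share 10 libraries and their depth.

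Other genes of the pathway showed no call. Of 75 genes in 6 lists (partners and coregulators of PPARγ, fatty acid uptake and activation, triglyceride synthesis, droplet formation, triglyceride hydrolysis and liver targets of PPARα), edgeR called 0 in either RNA, with 71 tested in the total and 70 in the polysome libraries. At an unadjusted p under 0.05, 1 was lower and 4 higher in total RNA, and 5 lower and 5 higher in polysome RNA, near the shares over all genes (3.69% lower and 4.96% higher, and 5.32% and 8.12%). Below, the 2 genes of each list with the smallest p in total RNA are named.

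Among 17 partners and coregulators the median log2 fold change was 0.04 in total and 0.22 in polysome RNA, against 0.01 and -0.01 over all genes. Over 8 mice these medians were 0.18 and 0.25. The coactivator subunit Med1 was at 0.22 (FDR = 0.513 by edgeR) and the coactivator Ncoa1 at 0.24 (FDR = 0.556) in total RNA, and at 0.23 and 0.41 in polysome RNA. Fatty acid uptake and activation had a median of 0.0027 over 12 genes in total RNA, and -0.09 over 11 in polysome RNA (-0.02 and -0.0049 over 8 mice). Its leading genes were Fabp2, a fatty acid binding protein best known from intestine (-0.65, SE 0.201, FDR = 0.378; -0.62 in polysome RNA), and Lpl, lipoprotein lipase (-0.42, FDR = 0.69; -0.21 in polysome RNA).

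Triglyceride synthesis had medians of -0.08 and -0.02 over 11 genes each, and over 8 mice these turned to 0.13 and 0.17. Gpat3, a glycerol-phosphate acyltransferase, was at -0.41 (FDR = 0.653) in total and -0.84 (FDR = 0.272) in polysome RNA, and Agpat2, which acts on the next intermediate, at 0.19 and -0.02. Droplet formation had medians of 0.0017 and 0.02 over 12 genes (0.02 and 0.07 over 8 mice). There Ldah, a hydrolase on droplets, was at 0.32 (SE 0.0915, FDR = 0.357) in total and 0.22 in polysome RNA, and Bscl2, the seipin of droplet budding, at 0.22 and 0.07.

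Triglyceride hydrolysis had medians of 0.10 and 0.03 over 7 genes, both 0.13 over 8 mice. G0s2, the protein inhibitor of the lipase PNPLA2, was at 0.72 (SE 0.253, FDR = 0.442) in total and 0.58 (FDR = 0.36) in polysome RNA, and Lipe, hormone-sensitive lipase, at 0.27 and -0.13. Liver targets of PPARα, a receptor that binds the same repeat and shares targets with PPARγ, had medians of -0.17 and -0.26 over 12 genes (-0.23 and -0.28 over 8 mice). Pdk4, a kinase that shuts pyruvate out of oxidation, was at -0.81 (FDR = 0.579) and -1.05 (FDR = 0.278), and Acadm, a dehydrogenase of fatty acid oxidation, at -0.22 and -0.28.

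**Figure D5:**
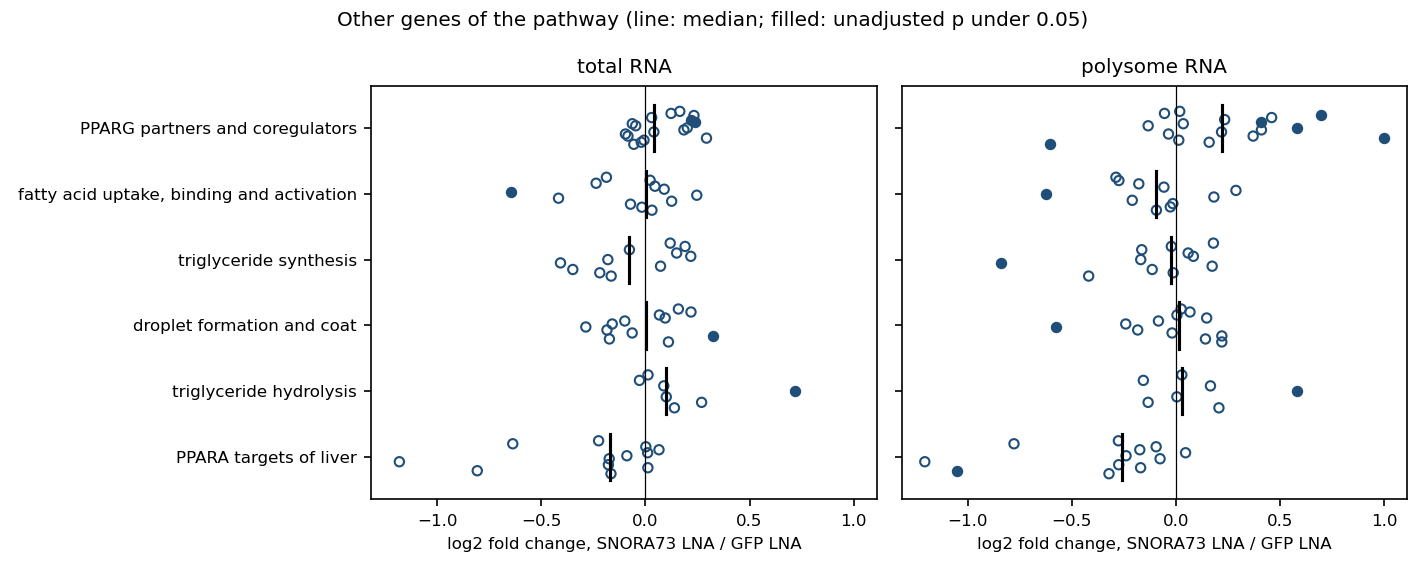
Log2 fold change of SNORA73 over GFP LNA for every gene tested in 6 lists over all 10 mice, in total RNA (left) and polysome RNA (right). Each point is a gene, filled at an unadjusted p under 0.05, and the black line is the list's median. The medians lie between -0.17 and 0.10 in total RNA and between -0.26 and 0.22 in polysome RNA, with 5 filled points on the left and 10 on the right.

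Cd36, Fabp4 and Pparg are made by several cell types, so markers of each were summed. The liver label was met by hepatocyte markers, with albumin at 19290 to 40580 CPM in total RNA. Of the 7 fat cell markers, 5 were at or near 0 and 2 were not. Adipoq gave 0 to 2 counts in total RNA and 0 to 9 in polysome RNA, Plin1 0 to 5 in both, Retn 0 to 5 and 0 to 6, and Lep and Ucp1 at most 1. Cfd, which encodes adipsin, gave 0 to 23 and 0 to 42 counts, and Adrb3, the beta-3 adrenergic receptor, 30 to 177 and 44 to 188, a count range like that of Pparg. The sum of the 7 fat cell markers, most of it Adrb3, was 2.93 to 6.12 CPM in GFP and 2.00 to 4.31 in SNORA73 total RNA, and 3.53 to 8.09 and 3.55 to 7.22 in polysome RNA.

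The 7 endothelial markers, none of them at 0 in any library, summed to 92.8 to 117 CPM in GFP and 109 to 129 in SNORA73 total RNA. Over 8 mice the GFP sums ended at 104 CPM and no longer overlapped. In polysome RNA they were at 83.7 to 94.4 and 102 to 112 CPM, higher without overlap in the SNORA73 mice. How often sums of other genes separate in this way was not counted. By edgeR, 0 of the 7 markers were called in polysome RNA. There 1 of the 7 was higher at an unadjusted p under 0.05, against 8.12% of all genes. In total RNA the marker Stab2, a scavenger receptor of liver sinusoids, was called (log2 fold change 1.06, SE 0.154, FDR = 0.0497), and the other 6 were not. The 7 macrophage markers overlapped, at 90.8 to 149 against 88.1 to 157 CPM in total and 95.3 to 174 against 104 to 189 in polysome RNA. So did the 6 stellate cell markers (206 to 270 against 180 to 261, and 124 to 180 against 133 to 184 CPM) and the 5 bile duct markers (18.1 to 34.7 against 12.4 to 54.6, and 13.6 to 27.2 against 10.2 to 37.1 CPM). Sums of the 6 hepatocyte markers also overlapped, at 32525 to 57033 against 36090 to 57564 CPM in total and 41270 to 67398 against 40202 to 62477 CPM in polysome RNA. The part of these markers in the results was not tested.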

How the data were processed

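RNA was sequenced as paired 100 bp reads from the livers of 10 mice, as 1 total and 1 polysome library each. The authors trimmed reads with fastp (Phred minimum 15), removed rRNA reads with bowtie, quantified Ensembl 102 transcripts with kallisto 0.46.2 and summed them to genes, and the deposited values are these estimated counts. Because kallisto divides shared reads among similar transcripts, counts of gene families can be uncertain. Whether this affects the Fabp genes was not checked. The study describes the reads as reverse-stranded and the reference as the mouse transcriptome of Ensembl 102. The index build and the strand option given to kallisto are not stated in the sources used here.

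Estimated counts were rounded. Symbols were matched for 51903 of 53028 genes. Testing was limited to genes whose CPM, before TMM scaling, passed 0.5 in 4 or more libraries of a fit. It was done with edgeR 4.0.16 (quasi-likelihood test, TMM) in R 4.3.3, without covariates. Total and polysome RNA were fitted apart and the interaction over all 20 libraries. Log2 CPM used a prior count of 2. Genes under the filter were compared by a two-sided exact permutation test of log2(CPM + 0.5), also with 0.1 in place of 0.5. Correlations were tested by 100000 permutations in NumPy 2.4.6 (two-sided), adjusted over each family. Whether replicates came from separate litters or cages is not stated, and each mouse is 1 replicate.

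The genes, the lists and the tests were chosen with earlier results of these data known. The text names the 10 genes, the 5 genes most correlated with Pparg in total RNA, and from each list the genes called between the LNAs or else the 2 with the smallest p in total RNA. Cell type lists (hepatocyte, fat cell, endothelial, macrophage, stellate and bile duct) were fixed in the same way. Pairing comes from the mouse number in the labels: total and polysome libraries of a mouse deviated together from their group means (r = 0.126 to 0.58), and 8 of 10 matched best with their own mouse. Alternatives were limma-voom 3.58.1, DESeq2 1.42.0, DESeq2's size factors, library totals, at least 1 count, a CPM above 1 in every library, 1 fit over 20 libraries, each mouse left out, 8 mice and the replicate block. Counting floors cover counting error only. On simulated counts with 200 genes changed by 1 on the log2 scale, edgeR recovered 77.8% of the 194 changed genes tested in total RNA, 45.5% of 200 in polysome RNA, 34.5% of 197 for the interaction and 82.5% of 194 for polysome against total RNA.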

Additional observations from a re-analysis of the deposited data

Results flagged for a closer look

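In 5 of 40 groups of 5 mice (10 genes, 2 RNAs and 2 LNAs), 1 mouse stood apart from the others by Dixon's test on log2 CPM (gap over range above 0.71). Chance alone marks about 1 group in 20. Pparg in total RNA of GFP mouse 9 was at 2.71 CPM, against 4.29 to 5.03 in the other GFP mice. Cidea in the same library was at 0.181 CPM (5 counts), against 0 to 0.0296 CPM. Plin2 in polysome RNA of GFP mouse 1 was at 636 CPM, against 357 to 419, and Pnpla2 in that library was at 20.1 CPM, against 25.1 to 27.0. Plin2 in total RNA of SNORA73 mouse 12 was at 240 CPM, against 325 to 362. None of the 9 genes tested was called for a difference of the LNA effect between total and polysome RNA (edgeR's interaction test).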

How the results depend on the processing

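The count of called genes among the 10 was 0 in total RNA with all mice. It was 1 over 8 mice by edgeR (Pparg) and by limma-voom (Pparg, a setting chosen after seeing the data), 1 by DESeq2 (Cd36), 1 with all genes of at least 1 count (Cd36), and 0 to 1 when each mouse was left out in turn, the 1 being Cd36 without mouse 3. In polysome RNA it was 3 by DESeq2 and 3 in a single fit of all 20 libraries (Pparg, Cd36 and Fabp4), and 0 when each mouse was left out. The single fit ignores that each mouse gave 2 of the libraries. Over all genes, the number called was 1 to 102 for total and 0 to 317 for polysome RNA across the 19 alternatives, against 4 and 2 in the tests reported. The log2 fold changes of Pparg (-0.84 to -0.61 in total, -1.11 to -0.85 in polysome RNA), Cd36 (-0.87 to -0.62, and -1.01 to -0.71) and Fabp4 (-0.54 to -0.31, and -0.72 to -0.52) kept their sign in all of them.

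The sign turned for Pnpla2 in total RNA with library totals (-0.029), for Pnpla2 in polysome RNA with limma-voom (-0.045), limma-voom over 8 mice (-0.048), library totals (-0.15) and at least 1 count (-0.0049), and without mouse 1, 6 or 12 (-0.15 to 0.15 over the mice left out). It also turned for Plin5 in polysome RNA without mouse 1 (-0.20 to 0.0087 over the mice left out), for the interaction of Cd36 without mouse 12 (-0.29 to 0.024), for the correlation of Pparg with Plin5 over 8 mice (-0.16) and with Pnpla2 under library totals (0.19), and for that with Plin4 without mice 2 and 10 (0.22). The cause was not tested. The replicate block left the interaction of every gene uncalled (Pparg -0.25, FDR = 0.809). It left the genes called between polysome and total RNA at 3 of the 9 (Cd36 -0.97, Fabp4 0.92, Plin5 0.32), against 9042 of all 13795 genes tested. Plin5 lost its call with DESeq2's size factors, at least 1 count and a CPM above 1 in every library, and the correlation of Pparg with Mogat1 (r = 0.766) and that of Plin5 between total and polysome RNA (r = 0.651) passed under library totals. Counts of at most 50 per library limit Mogat1, Plin4 and Cidec, and Cidea cannot be measured at this depth.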
